A study of Mus musculus with 4 samples.

Results

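The genes of major histocompatibility complex (MHC) class II were followed in cultured 1° mouse oligodendroglial cells (OGCs) with and without Zfp276. They comprise 7 of the 53465 genes in the count files and were picked by symbol, as the α and β chains H2-Aa, H2-Ab1 and H2-Eb1, the invariant chain Cd74, the peptide loading genes H2-DMa and H2-DMb1, and the regulator Ciita. OGCs from the forebrain of mice at postnatal day 2 to 4 went through mixed glial culture, shake-off and depletion of microglia and were then differentiated for 3 days. There were 2 ctrl libraries (Zfp276 flox/flox) and 2 Zfp276cko libraries (Sox10::Cre tg; Zfp276 flox/flox), each a separate preparation from 3 pooled mice. The Zfp276 flox allele of both genotypes has loxP sites around exons 2 to 5, and the Sox10::Cre transgene is active in the oligodendroglial lineage. The methods also name a Rosa26 stopflox tdTomato allele in the mice used for culture and a mixed C3H x C57Bl/6J background.

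Class II molecules are pairs of an α and a β chain that present peptides from endosomes to CD4+ T cells. The invariant chain fills the groove of a new pair until it is degraded in the endosome, and the H2-DM pair then helps to exchange its remnant for a peptide. Transcription of these genes needs a complex of RFX, NF-Y and CREB factors at a shared pair of promoter elements, the X box and the Y box, and the coactivator Ciita, which is typically induced by interferon-gamma. In the brain, class II is best known from microglia and macrophages, and it has also been described in oligodendroglia under inflammation.

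Between 21068322 and 26599809 reads were counted per library, and 2 libraries per genotype limit every comparison. The ctrl replicates stood further apart from each other than the Zfp276cko replicates did. Zfp276 itself had 1648 and 2230 normalized counts (reads scaled to the mean library size) for the ctrl pair, against 490 and 503 for the Zfp276cko pair. All 12 markers of oligodendroglia were present. At an unadjusted p of 0.05 or less, 9 of them were lower in Zfp276cko, against 7.30% of all genes tested. Of 22 microglia markers, 20 were also present in every library despite the depletion, with Aif1 between 1051 and 3279 reads and Ptprc between 2542 and 6127 reads, while Gpr34 and Siglech were listed at 0. Transcripts of microglia markers were thus part of these bulk samples, in which fewer cells of a type and less RNA per cell cannot be told apart.

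Class II transcripts were scarce in all 4 libraries. The 7 genes together took 337 and 298 reads in ctrl 1 and 2 and 321 and 356 reads in Zfp276cko 1 and 2. H2-DMa alone held between 58.6% and 64.7% of these reads. The other 6 genes shared 119, 112, 133 and 134 reads. None of the 5 class II genes that could be tested passed the test between the genotypes. Nor did the deleted gene Zfp276 (log2 fold change −1.97, adjusted p = 0.0962 by edgeR's quasi-likelihood test). The smallest adjusted p of this test over all 15766 genes tested was 0.0725. The most unequal values lay between the ctrl libraries, where Cd74 was high in ctrl 1 and H2-Ab1 and H2-Eb1 were high in ctrl 2.

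**Figure D1:**
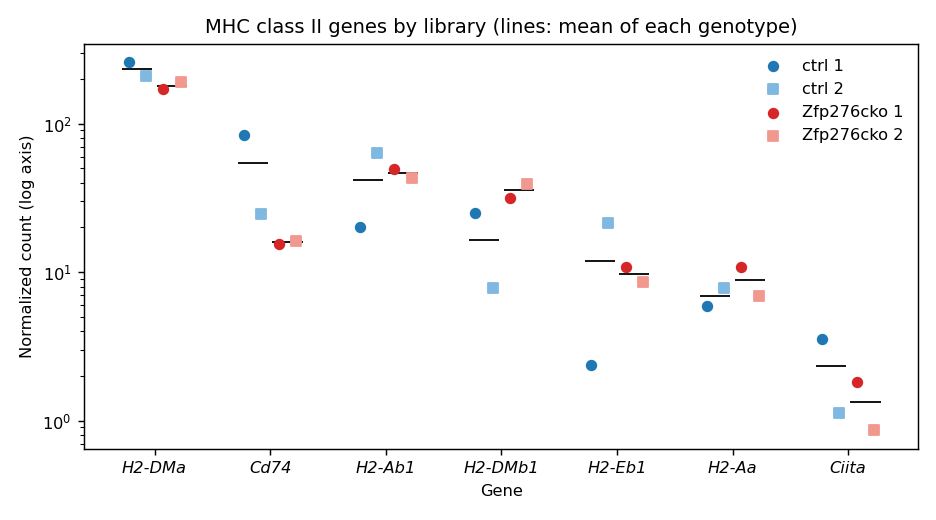
Normalized counts of the 7 class II genes (log axis) in each library, with a line at the mean of each genotype (n = 2). H2-DMa lies between 170 and 259, all other genes lie below 85, and the blue ctrl points of Cd74, H2-Ab1, H2-DMb1 and H2-Eb1 are spread more widely than the red Zfp276cko points.

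To compare genes, reads were divided by the exon length of each gene in kb and scaled to 1000000 reads (RPKM). On this scale H2-DMa had the highest mean level over the 4 libraries (2.54), followed by Cd74 (0.887), H2-Ab1 (0.725), H2-DMb1 (0.654), H2-Eb1 (0.235), H2-Aa (0.0878) and Ciita (0.00816). H2-DMa lay above Cd74 in 4 of 4 libraries, and H2-Aa lay above Ciita in 4 of 4. Cd74 lay above H2-Ab1 in 1 of 4 libraries, and H2-Ab1 above H2-DMb1 in 2 of 4. The order of these 3 genes therefore changed between libraries. H2-DMb1 exceeded H2-Eb1, and H2-Eb1 exceeded H2-Aa, in 3 of 4 libraries each.

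The genes of the chains lie side by side in the H2 complex on chromosome 17 of mm10. H2-Ab1, the β chain of the A molecule, spans 34257689 to 34269419 on the plus strand. H2-Aa, its α chain, spans 34282744 to 34287823 on the minus strand, and H2-Eb1, the β chain of the E molecule, spans 34305867 to 34316674 on the plus strand. Promoter windows came from a RefSeq table (GRCm38.p6, 250 bases before to 50 bases after a start). Those examined here were of H2-Aa, H2-Eb1 and H2-DMb1, and of H2-DMa at 2 starts. The stretches below show the shared elements by which class II genes are known, with the matched letters in capitals and each read 5′ to 3′ on the strand of its gene.
H2-Aa Y box, chr17:34287855-34287884, minus strand: agagaattttctGATTGGttctggcgagtt
H2-Eb1 Y box, chr17:34305795-34305824, plus strand: tcctttgatgctGATTGGctcccagcactg
H2-DMb1 Y box, chr17:34153117-34153146, plus strand: gattcactcagtGATTGGtctgacctgcct
H2-Eb1 X box, chr17:34305766-34305795, plus strand: tctctaactAGCAACTGATGatgctggact
H2-DMb1 X box, chr17:34153087-34153116, plus strand: ggtttacctAGTAACTGATGatgctaggct

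The letters GATTGG for the Y box and a degenerate pattern for the X box, capitals in the stretches above, were chosen after these sequences had been read and were searched on both strands. GATTGG occurs in 16.1% of the 32851 windows searched, the X box pattern in 0.895%, and both occur in 0.134%. The Y box begins 49 bases before the listed start in H2-Aa, 60 in H2-Eb1 and 62 in H2-DMb1. H2-Eb1 holds a further match to GATTGG on the opposite strand, 35 bases before the start. The X box begins 92 bases before the start in H2-Eb1 and 95 in H2-DMb1, and had no match in the window of H2-Aa. In H2-DMa, 1 window had no match and the other had GATTGG 199 bases before the start. H2-DMb2 and H2-Oa had GATTGG 91 and 44 bases before the start, and no match to the X box. H2-Ob had both, the Y box 58 and the X box 88 bases before the start. Among the members, both elements were found in H2-Eb1, which was lowest in ctrl 1 (2 reads), and in H2-DMb1, which was lowest in ctrl 2 (7 reads). The promoters of Cd74, H2-Ab1 and Ciita were not examined for these elements. Whether the elements bear on the levels was not tested.

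H2-Ab1 had 20.2 and 63.0 normalized counts in ctrl 1 and 2, and 49.8 and 43.0 in Zfp276cko 1 and 2. Ctrl 1 was the low library, and the Zfp276cko values lay between the 2 ctrl values. Genotype means were 41.6 ± 30.3 for ctrl and 46.4 ± 4.82 for Zfp276cko (SD, n = 2 each), and the log2 fold change was 0.15 (standard error, SE, 0.60, adjusted p = 0.929 by the quasi-likelihood test of edgeR, Benjamini-Hochberg adjusted). H2-Eb1 had 2.37, 21.4, 10.9 and 8.59 normalized counts in the same order. Its log2 fold change of −0.30 (SE 0.97, adjusted p = 0.913) again came from Zfp276cko values between those of the 2 ctrl libraries. H2-Aa had 5, 7, 12 and 8 reads and was too low for the test. Fitted without a filter on low counts, its log2 fold change was 0.37 (adjusted p = 0.799).

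The gap between the ctrl libraries is given here beside its counting interval, which leaves out the spread between preparations. H2-Ab1 was 3.12-fold higher in ctrl 2 than in ctrl 1 (95% interval 1.79 to 5.73, exact binomial). H2-Eb1, with 2 reads in ctrl 1 and 19 in ctrl 2, was 9.0-fold higher in ctrl 2 (interval 2.17 to 79.7). For H2-Aa, the third chain gene, the ratio of 1.33 had an interval from 0.363 to 5.30. Between the Zfp276cko libraries the intervals of all 3 chain genes included 1. These intervals, and all others of read counts given here, cover counting error only.

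Cd74 (chromosome 18 of mm10, 60803848 to 60812652), the invariant chain, had 84.3 and 24.8 normalized counts in ctrl 1 and 2, and 15.4 and 16.3 in Zfp276cko 1 and 2. Ctrl 1 stood far above the other 3 libraries, and the Zfp276cko pair was below the ctrl pair throughout. Genotype means were 54.5 ± 42.1 for ctrl and 15.9 ± 0.666 for Zfp276cko (SD, n = 2 each). The log2 fold change of −1.77 (SE 0.68, 95% interval −3.62 to 0.08) did not pass the test, with an adjusted p of 0.336 by the quasi-likelihood test. DESeq2 gave −1.80 with an adjusted p of 0.267. Without ctrl 1 the log2 fold change was −0.64, and without ctrl 2 it was −2.41 with an adjusted p of 7.72e-06. A test without a ctrl library leaves 1 ctrl sample and assumes that it varies like the Zfp276cko samples. Such tests called many genes, 10.7% higher and 6.03% lower of all genes tested without ctrl 1, and 11.4% higher and 7.95% lower without ctrl 2.

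Cd74 was 3.41-fold higher in ctrl 1 than in ctrl 2 (95% interval 2.09 to 5.77), opposite in direction to H2-Ab1 and H2-Eb1. As a result, the chain genes together had 0.338 reads per Cd74 read in ctrl 1, against 3.73 in ctrl 2 and 4.65 and 3.58 in Zfp276cko 1 and 2. Genes of border macrophages, another type of cell known for class II, were also unequal between the ctrl libraries, as were several microglia markers. Of the 20 tested microglia genes, 14 were higher in ctrl 1 than in ctrl 2. So were 11 of 12 class I presentation genes and 4 of 12 markers of oligodendroglia. The lean to ctrl 1 was thus not particular to microglia, and its share over all genes is not given here. Csf1r, the receptor that microglia and macrophages need to survive, had 9609 reads in ctrl 1 and 1644 in ctrl 2, against 3409 and 3511 for the Zfp276cko pair, and Trem2, a lipid receptor, had 889, 160, 362 and 330. Aif1 went the other way, with 1051 reads in ctrl 1 and 2847 in ctrl 2. F13a1, a macrophage transglutaminase, had 746 reads in ctrl 1 and 0, 4 and 7 in the other libraries. Pf4 had 529, 4, 49 and 44 reads, and Mrc1, the mannose receptor, had 477, 7, 60 and 51. The 7 markers of border macrophages added up to 203 counts per 1000000 reads (CPM) in ctrl 1, 85.4 in ctrl 2, and 124 and 123 in Zfp276cko 1 and 2. Ms4a7, with between 1781 and 3284 reads, had the most reads of the 7 in every library, and Lyve1, Cd163 and Cbr2 had at most 13 reads. The fibroblast collagens Col1a1 and Col3a1 had 2124 and 2005 reads in ctrl 1 and between 30 and 82 reads elsewhere. Their part in the level of Cd74 was not tested.

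**Figure D2:**
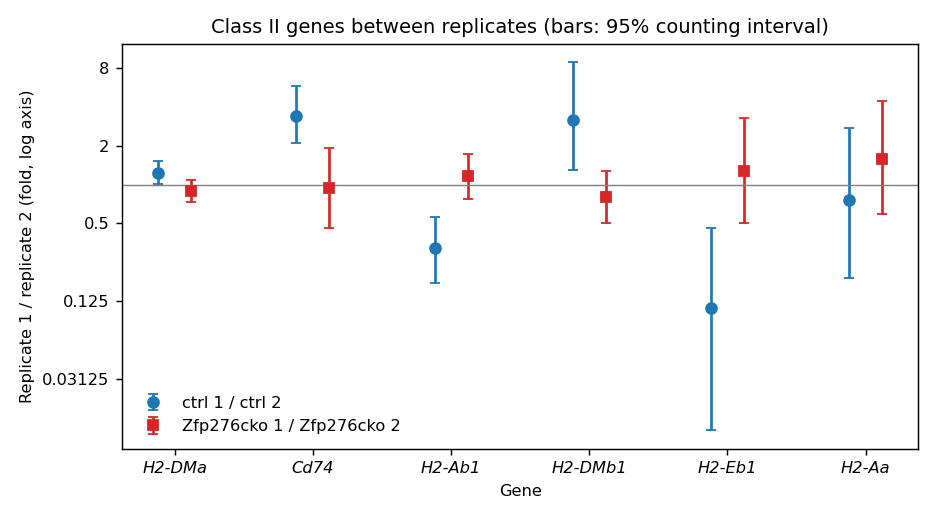
Ratio of replicate 1 to replicate 2 (fold, log axis) for 6 class II genes, for ctrl (blue) and Zfp276cko (red), with 95% intervals for counting error. In ctrl the intervals of Cd74, H2-DMb1 and, narrowly, H2-DMa lie above 1 and those of H2-Ab1 and H2-Eb1 below 1, that of H2-Aa includes 1, and every Zfp276cko interval includes 1.

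The loading genes H2-DMa and H2-DMb1 encode the α and β chain of H2-DM. H2-DMa (chromosome 17, 34119541 to 34139101, plus strand) had 259 and 209 normalized counts in ctrl 1 and 2, and 170 and 191 in Zfp276cko 1 and 2. The Zfp276cko pair was below the ctrl pair by a small margin. The means were 234 ± 35.0 and 180 ± 14.6 (SD, n = 2 each), and the log2 fold change was −0.38 (SE 0.21, 95% interval −0.94 to 0.19, adjusted p = 0.467 by the quasi-likelihood test). Exons of H2-DMa overlap Brd2 on the opposite strand over 360 nt, which is 10.4% of the exon length. The strand setting of the counting is not stated in the methods, so reads of this overlap cannot be assigned. Brd2 had between 6408 and 8551 normalized counts, and its genotypes overlapped.

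H2-DMb1 (chromosome 17, 34153072 to 34160230, plus strand) had 24.9 and 7.88 normalized counts in ctrl 1 and 2, and 31.7 and 39.5 in Zfp276cko 1 and 2. Ctrl 2 was the low library, and the Zfp276cko pair was above the ctrl pair throughout. The log2 fold change was 1.12 (SE 0.60, 95% interval −0.52 to 2.76, adjusted p = 0.456 from the same test). It was 0.50 without ctrl 2, and 2.16 without ctrl 1 with an adjusted p of 0.00182. H2-DMb2, a neighbouring copy of the β chain gene at 34143307 to 34151555, had 11, 3, 8 and 17 reads, and 11.2% of the 101-base windows in H2-DMb1 transcripts also occur in H2-DMb2. The split of reads between the copies is therefore uncertain. Together they had 32 and 10 reads for the ctrl pair, against 43 and 63 for the Zfp276cko pair, so that the order of the libraries did not change. The genes of the α and β chain of H2-DM thus had opposite signs of change, neither of which passed the test.

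Ciita (chromosome 16, 10480059 to 10528418, plus strand) had 3 and 1 reads for the ctrl pair, against 2 and 1 reads for the Zfp276cko pair. All 4 values were at or under 3 reads, which corresponds to between 0.109 and 0.151 CPM, so no fold change was given. A difference in Ciita was not detectable at this depth.

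Of the 7 genes, 5 passed the filter on low counts. Among the tested members edgeR's quasi-likelihood test called 0 higher and 0 lower in Zfp276cko cells, as it did for 0% of the 15766 genes tested. DESeq2, which gave H2-Eb1 no adjusted p, limma voom and edgeR's likelihood ratio test also called 0 members. DESeq2 called 3.02% of the genes it tested higher and 2.27% lower. At an unadjusted p of 0.05 or less, 0 members were higher and 0 lower, against 8.33% and 7.30% of all genes tested. For Cd74 the unadjusted p was 0.0569, and it was 0.0338 with DESeq2. Zfp276cko libraries lay above both ctrl libraries for 1 tested member and below both for 2, against 26.8% and 23.7% of all genes tested. Counts of 1 and 2 among 5 genes are no result about class II against this background. The intervals were wide, from −1.48 to 1.78 for H2-Ab1 and from −2.93 to 2.33 for H2-Eb1 on the log2 scale. Leaving out ctrl 2 gave an adjusted p of 0.0127 for H2-Ab1 with a log2 fold change of 1.18, and leaving out ctrl 1 reversed its direction to −0.44.

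**Figure D3:**
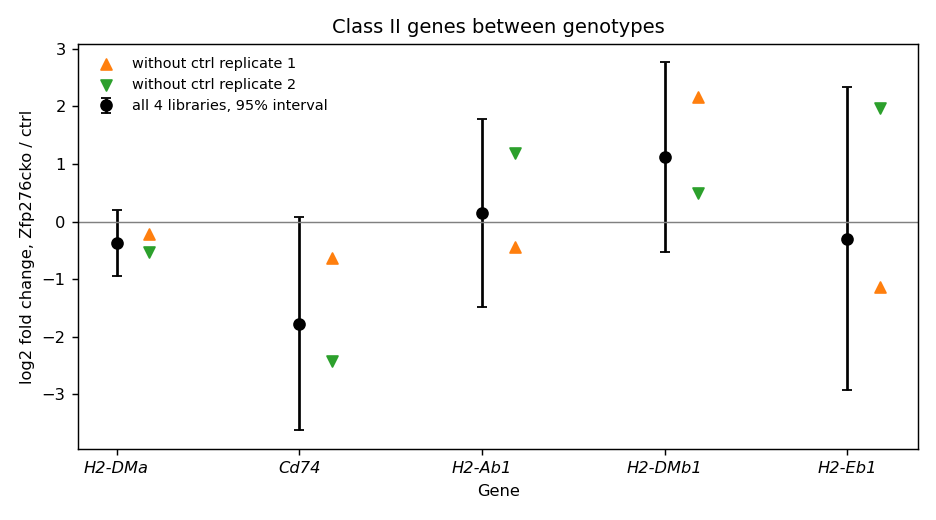
Log2 fold change between Zfp276cko and ctrl for the 5 tested class II genes, with the 95% interval of the quasi-likelihood fit (black) and the values without ctrl 1 (orange) or ctrl 2 (green). Every interval includes 0, and H2-Ab1 and H2-Eb1 change direction with the ctrl library left out.

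Transcripts of the enhanceosome that reads the X and Y boxes had small log2 fold changes between the genotypes, none of which passed the test. Its list holds the RFX subunits Rfx5, Rfxap and Rfxank, the NF-Y subunits Nfya, Nfyb and Nfyc, Creb1, and the coactivators Crebbp, Ep300 and Kat2b. Of these 10 genes, 10 were tested and 0 were called higher or lower, by the quasi-likelihood test or DESeq2, and 0 had an unadjusted p no higher than 0.05. Over all genes tested, the quasi-likelihood test called 0%, and 8.33% were higher and 7.30% lower at that unadjusted p. DESeq2 called 3.02% higher and 2.27% lower of the genes it tested. A count of 0 among 10 genes is no result about the enhanceosome against these shares. The log2 fold changes of the 10 genes lay between −0.32 (Kat2b) and 0.32 (Rfxank). Their median was −0.05, beside −0.0013 over all genes tested, and was −0.12 without ctrl 1 and 0.04 without ctrl 2. Rfx5, which carries the DNA contact of the RFX complex, had 828 and 1147 normalized counts for the ctrl pair, against 1112 and 1122 for the Zfp276cko pair. Rfx5 also had a mean of 7.60 RPKM in ctrl, far above the 0.0104 RPKM of Ciita.

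Signals upstream of Ciita were read from 15 genes. Ifng, which encodes interferon-gamma, had 0 reads in both ctrl libraries and 1 and 0 in Zfp276cko cells. Of its receptor chains, Ifngr1 had a log2 fold change of −0.18 (adjusted p = 0.728) and Ifngr2 of 0.19 (adjusted p = 0.670). The Zfp276cko pair was above the ctrl pair for Irf1, a factor at the Ciita promoter (log2 fold change 1.00, adjusted p = 0.178 by the quasi-likelihood test), for Socs1, an inhibitor of interferon signalling (2.21, adjusted p = 0.121), and for Nlrc5, the counterpart of Ciita for class I genes (2.51, adjusted p = 0.149).

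Nlrc5 and Ciita encode related proteins, and their transcripts differed widely in level. Nlrc5 had 429 and 183 normalized counts for the ctrl pair, against 1732 and 1743 for the Zfp276cko pair, while Ciita had at most 3.56. Prdm1, a repressor of Ciita in plasma cells, had 121 and 140 normalized counts for the ctrl pair, against 67.0 and 58.4 for the Zfp276cko pair (log2 fold change −1.05, adjusted p = 0.189). The log2 fold changes of Irf8 and Spi1, factors of myeloid cells, were 0.75 and 0.25 with adjusted p-values of 0.335 and 0.493. Of the 13 tested genes in this list of 15, the quasi-likelihood test called 0, 4 had an unadjusted p no higher than 0.05 and were higher, and 1 was lower. DESeq2 called 4 higher, among them Irf1, Socs1 and Nlrc5, and 0 lower. Beside these counts, 8.33% and 7.30% of all genes were higher and lower at that unadjusted p. DESeq2 called 3.02% and 2.27% of the genes it tested.

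Class I genes, which present peptides from the cytosol, were expressed at far higher levels. B2m, the light chain of class I, had a mean of 479 RPKM in ctrl and 1281 in Zfp276cko cells. The heavy chain H2-K1 had 52.4 and 106 RPKM, and H2-D1 had 47.6 and 103. Cd74, for comparison, had 1.37 and 0.399 RPKM and H2-Ab1 had 0.685 and 0.764. In every library the class I chains lay above every class II gene on this scale. For 12 of 12 class I presentation genes the Zfp276cko pair was above the ctrl pair, against 26.8% of all genes tested. Their log2 fold changes had a median of 1.35, which was 2.12 without ctrl 1 and 1.00 without ctrl 2. Of the 12, the quasi-likelihood test called 0, 8 were higher at an unadjusted p no higher than 0.05 and DESeq2 called 8 higher. Over all genes, 8.33% were higher at that unadjusted p and DESeq2 called 3.02% higher. Ctrl 2 was the lowest library for the class I chains, with 3786 reads of B2m against 12813 in ctrl 1. Whether class I and class II genes differed in their response was not tested.

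**Figure D4:**
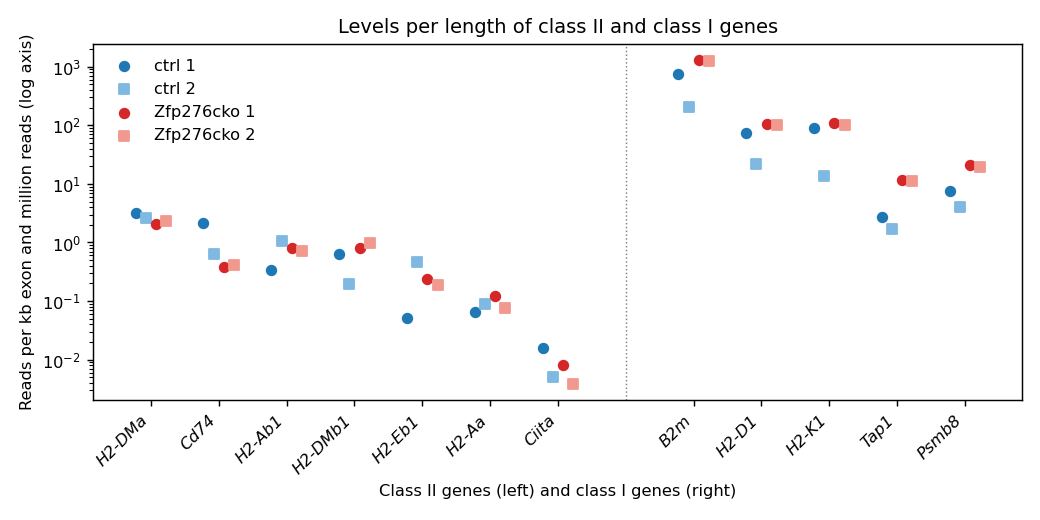
RPKM (log axis) of the 7 class II genes on the left and of 5 class I genes on the right, by library. Class II genes lie below 4 and the class I chains B2m, H2-D1 and H2-K1 above 10, and among class I genes both red Zfp276cko points lie above both blue ctrl points.

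Transcripts of proteins that prepare peptides for class II were abundant, and many of these proteins are also general enzymes of lysosomes. Ctss, the cathepsin that trims the invariant chain in antigen-presenting cells, had 16135 and 3667 normalized counts for the ctrl pair, against 10224 and 10306 for the Zfp276cko pair, with a log2 fold change of 0.05 (adjusted p = 0.982 by the quasi-likelihood test). Ctrl 1 was high and ctrl 2 was low, as for Cd74, but the Zfp276cko libraries lay between them. Lgmn, an asparaginyl endopeptidase, had 11071 and 11749 for the ctrl pair, against 19006 and 17993 for the Zfp276cko pair (0.70, adjusted p = 0.139). Ifi30, a thiol reductase of endosomes, had a log2 fold change of 0.31 (adjusted p = 0.765). The ubiquitin ligase March1, which removes class II from the cell surface, had 728 and 466 for the ctrl pair, against 1325 and 1367 for the Zfp276cko pair (1.17, adjusted p = 0.176). Its relative March8 had a log2 fold change of −0.88 (adjusted p = 0.231). Of 9 tested genes, 0 were called, and 2 were higher and 1 was lower at an unadjusted p no higher than 0.05. DESeq2 called Lgmn and March1 higher and March8 lower. The shares over all genes were 8.33% higher and 7.30% lower at that unadjusted p, and 3.02% and 2.27% with DESeq2.

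Transcripts of costimulatory and inhibitory molecules of presenting cells, and of Cd4 and Lag3, which bind class II, were mixed. Cd274, which encodes the inhibitory ligand PD-L1, had 779 and 1002 normalized counts for the ctrl pair, against 3063 and 3108 for the Zfp276cko pair (log2 fold change 1.79, adjusted p = 0.0962 by the quasi-likelihood test, 1.77e-15 from DESeq2). Cd86 had 173 and 97.9 for the ctrl pair, against 282 and 262 for the Zfp276cko pair (1.01, adjusted p = 0.290). Cd80 and Cd40 had at most 55.8 and 44.7 normalized counts, and their genotypes overlapped. So did those of Cd4, with 66 and 6 reads for the ctrl pair and 45 and 43 for the Zfp276cko pair, and of Lag3, with 16 to 28 reads. Of 7 tested genes, 0 were called by the quasi-likelihood test and 1 (Cd274) by DESeq2. At an unadjusted p no higher than 0.05, 2 were higher. Among all genes, DESeq2 called 3.02% higher and 8.33% were higher at that unadjusted p.

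**Figure D5:**
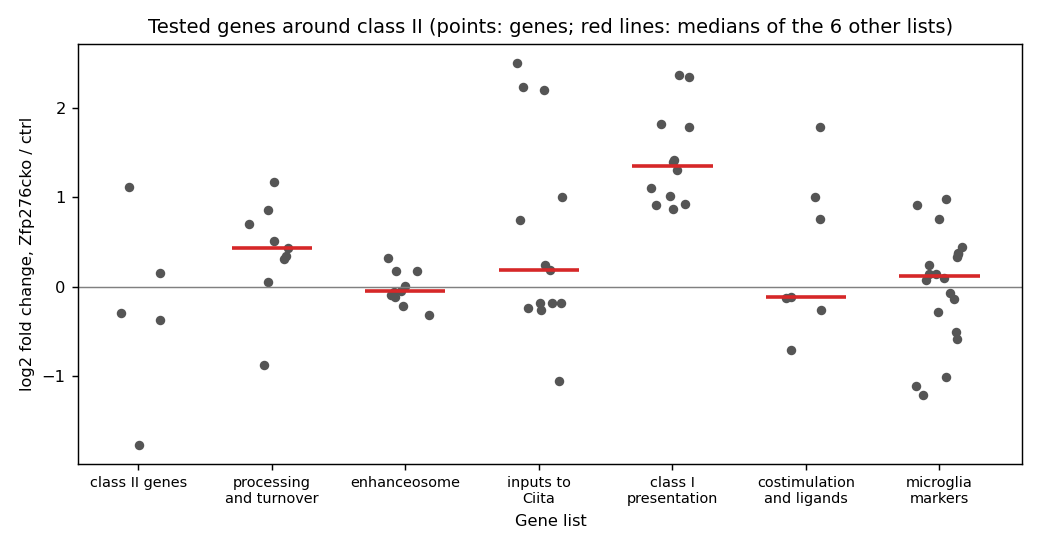
Log2 fold changes between Zfp276cko and ctrl for tested genes of 7 lists, with a point for each gene and a red line at the median of the 6 lists other than class II. Class II genes fall on both sides of 0, enhanceosome genes lie between −0.32 and 0.32, and all class I presentation genes lie at 0.87 or above.

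Markers of other presenting cells were mostly low. Among dendritic cell markers, Cd209a was listed at 0 in every library, Clec9a, Ccr7, Xcr1 and Flt3 had at most 3 reads, and Itgax had between 16 and 66. Zbtb46 was the highest, with between 175 and 281 reads, and Batf3 had between 18 and 39. Of B cell markers, Ms4a1 was at 0 and Pax5 had at most 2 reads, while Cd79b had between 21 and 56 reads, Cd22 between 19 and 218 and Blnk between 607 and 1540. Blnk and Cd22 are also known from microglia. The T cell genes Cd3d, Cd3e, Cd3g and Cd8a had at most 2 reads, and Cd5 had between 0 and 8. Lck, the only T cell gene tested, had 6 and 4 reads for the ctrl pair, against 23 and 22 for the Zfp276cko pair. Its log2 fold change was 1.76 (adjusted p = 0.204 by the quasi-likelihood test). A count of 0 does not show that a transcript was absent.

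The microglia list added up to 4240 and 2982 CPM for the ctrl pair, against 3395 and 3458 CPM for the Zfp276cko pair. Over its 20 tested genes the median change was 0.11 on the log2 scale, with 0 called by the quasi-likelihood test. At an unadjusted p of 0.05 or less, 3 were higher (Cx3cr1, Cd68 and Ptprc) and 1 was lower (Fcrls). The shares of all genes tested were 8.33% and 7.30%. DESeq2 called Cd68 and Ptprc higher and Fcrls lower, beside 3.02% higher and 2.27% lower of the genes it tested. The median turned with the ctrl library left out, to 0.56 without ctrl 1 and −0.18 without ctrl 2. Relative to these markers, the class II genes without H2-DMa had 1.41 and 1.79 reads per 1000 microglia reads for the ctrl pair, against 1.5 and 1.41 for the Zfp276cko pair. Cd74 had 0.841 and 0.351 for the ctrl pair, against 0.192 and 0.200 for the Zfp276cko pair, so that ctrl 1 was the highest library on this scale. Per 1000 reads of Csf1r alone, Cd74 had 7.39 and 13.4 reads for the ctrl pair, against 4.99 and 5.41 for the Zfp276cko pair, and ctrl 2 was then the highest library. It was also the highest per 1000 reads of Trem2, with 137.5 against 79.9 in ctrl 1. The order of the ctrl libraries thus changed with the marker chosen for scaling. Which cells carried the class II reads was not tested.

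The E molecule needs an α chain that strains differ in. The gene, listed as H2-Ea-ps, is silent in C57BL/6 mice, the strain of the reference genome, and active in C3H mice. It had 1 read in ctrl 1 and 0 in the other libraries, and H2-Eb2 had 0 in all. The H2 haplotype of each preparation was not determined, and the effect of C3H alleles on mapping to mm10 was not tested. H2-Oa and H2-Ob, which form an inhibitor of H2-DM in B cells, had between 3 and 12 and between 0 and 8 reads.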

How the data were processed

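RNA-Seq was performed by the authors on 4 libraries of 1° mouse OGCs (single-end reads of 101 bases, stranded mRNA libraries). They mapped reads to mm10 with STAR 2.5.4a and deposited raw counts per gene symbol without normalization. The methods name HTSeq on Ensembl genes for the counting, the submitters' processing notes name featureCounts 1.5.1, and no strand setting is given. Sample groups and replicate numbers came from the titles. Whether replicate numbers mark shared litters or days is not given.

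From these counts, genes were kept with edgeR's filterByExpr function (15766 genes), normalized with TMM and compared with edgeR's quasi-likelihood test (edgeR 4.0.16 in R 4.3.3). Genes were called at an adjusted p up to 0.05 if they changed by 0.6 or more on the log2 scale and averaged 20 or more normalized counts. RPKM used the union of annotated exons (GENCODE M21, mm10), which differs from the annotation of the counting. Intervals at 95% are exact binomial for ratios of read counts, and come from the standard error of the fit for log2 fold changes. Of entries sharing a symbol, the most counted was used. The smallest two-sided p of an exact permutation test of 2 against 2 libraries is 0.333.

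The class II genes and all lists were chosen with earlier results of these data known. Named genes were all members, genes of the pathway lists, of each marker list the first 5 genes and those with the most extreme fold changes, the 10 genes nearest in pattern, and Zfp276. Other marker genes, Brd2 and the genes nearest to single members were named after their values were seen. The scaling of Cd74 to Csf1r and Trem2 and the order of levels were also added after seeing the data. Alternatives were DESeq2 1.42.0, voom of limma 3.58.1, other size factors, filters, tests and call rules, a replicate block, and leaving out each library. Values of some list genes are not reported here.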

Additional observations from a re-analysis of the deposited data

How the results depend on the processing

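The count of class II genes called stayed at 0 with DESeq2's size factors, unfiltered genes, a minimum of 10 counts per library, the replicate block, DESeq2, the legacy setting off, the likelihood ratio test, limma voom, an unadjusted p and no threshold on fold or mean. It ranged from 0 to 2 when each library was left out in turn, with 1 gene (H2-DMb1) without ctrl 1 and 2 (Cd74 and H2-Ab1) without ctrl 2, where 1693 and 1799 of all 15766 genes tested were called higher and 951 and 1253 lower. For the other genes of the pathway, 0 calls became 16 with DESeq2, 15 with the likelihood ratio test, 18 with an unadjusted p, and 0 to 31 with a library left out (31 without ctrl 1, 22 without ctrl 2). For marker genes, 0 calls became 11, 9 and 14 under the same settings, and 0 to 32 with a library left out (28 without ctrl 1, 32 without ctrl 2). The cause was not tested. Over all genes, the main test called 0, and DESeq2 called 449 higher and 338 lower (3.02% and 2.27% of the genes it tested). Of the 15766 genes tested, the likelihood ratio test called 428 and 268, and an unadjusted p 806 and 476.

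The log2 fold change of H2-Eb1 reversed to 0.022 with the replicate block and to 0.30 with limma voom, and ranged from −1.13 to 1.97 with a library left out. That of H2-Ab1 ranged from −0.44 to 1.18, that of Cd74 from −2.41 to −0.64, that of H2-DMb1 from 0.50 to 2.16 and that of H2-DMa from −0.53 to −0.21. No source used here says that replicate numbers pair the samples, and the deviations of same-numbered samples from their group means had a correlation of −0.0050 over genes. The replicate block left 0 calls in the class II genes, the pathway and the markers. Of the 10 genes nearest in pattern, 0 stayed with a prior count of 0.5. Counts of 1 to 19 reads limit H2-Aa, H2-Eb1 and Ciita.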

Other observations

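The 5 tested class II genes had no common pattern over the 4 libraries. Their mean profile on the log2 CPM scale was nearly flat, from −0.05 in ctrl 1 to 0.06 in ctrl 2, and the members lay between 0.236 (H2-DMa) and 0.952 (Cd74) from it in root mean square difference. The 10 genes nearest to this mean were therefore genes that hardly varied, such as Ddx42, Emsy and Brwd1, at a distance of 0.0066 to 0.0111. The nearest genes to each member were looked up after these values were seen. For Cd74 they were Myo5b, with 468, 141, 85.1 and 90.2 normalized counts in ctrl 1 and 2 and Zfp276cko 1 and 2, Cyr61, and Nsdhl, an enzyme of cholesterol synthesis, with 4191, 1521, 932 and 979. Nearest to H2-Ab1 were Dpysl5, with 660, 1862, 1458 and 1396, and Tspyl5. For H2-Eb1 they were Aldh8a1 and Cacna1i, and for H2-DMa Slc4a7 and Ndfip1. The nearest gene to H2-DMb1 was Trim55, with 24.9, 7.88, 35.3 and 41.2 normalized counts, followed by Zfp947 and Naip5. With 4 libraries, many genes share such a profile, and the likeness is a description without a test.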
